A study of Mus musculus with 1073 samples.

Results

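The haematopoietic progenitor cells (HPC) described here were sorted as TER119- CDH5+ CD41+ cells from E8.5 yolk sacs of C57BL/6 mice and carry the label erythro-myeloid progenitor (EMP). Membership was set by this gate and label alone, and by no measured RNA level. In all, 89 of 90 captured cells passed the authors' filter, out of 926 of 1073 captured cells in 13 sorted populations. The study measured single-cell RNA of the yolk sac, and around it of the mesoderm and blood lineages, between E7.25 and E10.5. TER119 is an erythroid surface antigen, CDH5 is VE-cadherin of endothelial junctions, and CD41 is the integrin subunit encoded by *Itga2b*.

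The other populations serve here as comparison. At E8.5, the primitive erythroid cells (EryP, 66 cells) were CD41- CDH5- TER119+, the megakaryocytes (Mk, 37 cells) were TER119- CDH5- CD41+, and the endothelial cells (Endo, 79 cells) were TER119- CD41- CDH5+. HPC of E8.25 (73 cells) came through the same gate as those of E8.5, whereas HPC of E9.5 (46 cells) and E10.5 (87 cells) were TER119- CDH5- CD45+ CD41low. At E10.5 the sorts were EryP (3 cells), TER119- CDH5- CD45- CD41high Mk (73 cells), TER119- CDH5- CD41- CD45+ macrophages (Mac, 25 cells) and TER119- CD45- CD41- CDH5+ Endo (61 cells). The E7.25 and E7.75 populations were *Flk1*-GFP+ cells of embryos with 1 *Flk1*-GFP allele, and all other populations had the C57BL/6 genotype without a reporter. No population was treated. The labels name no embryo, litter, pool or replicate for a cell, so each population is taken as 1 sample, and none of the differences below has a replicate check or a p-value.

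Erythro-myeloid progenitors are a wave of blood progenitors that arises in the yolk sac from endothelium able to form blood, the haemogenic endothelium. They give rise to erythroid, megakaryocytic and myeloid cells, later seed the fetal liver, and are a source of tissue macrophages. *Runx1*, *Gata2* and *Myb* encode transcription factors used in the emergence and upkeep of blood progenitors, *Kit* encodes the stem cell factor receptor, and *Pf4* encodes a platelet chemokine.

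The 89 cells held between 883020 and 2586615 read counts (median 1555237), and 5319 to 9731 of 15967 genes were found in a cell (median 9053). Levels are given as CPM, the counts scaled by a size factor per cell, and a gene was called found in a cell at 1 count or more. The interval given after a share of cells is the exact 95% Clopper-Pearson interval. It takes in counting error alone, since PCR reads without molecular identifiers are not independent molecules. The 89 index pairs were all used again in other lanes of the same flow cell, which carried 5 of the other populations. *Xist* is made from the inactive X chromosome of female cells. At least 5 of its counts together with at least 5 counts summed over 4 Y-linked genes, here called transcripts of both sexes, were present in 40 of the 89 cells (44.9%), and 11 cells (12.4%) held 50 or more of each. Results are also given without these 40 cells where they move. The 1 captured cell that was left out held 4243 genes, against 5469 to 10135 in the kept cells over all annotated genes.

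All 6 progenitor markers were found in most of the cells. *Runx1* was found in 100% of the cells (95.9 to 100%), at 6.46 CPM in the lowest cell, 204 in the median and 768 in the highest. *Itga2b* was found in 96.6% (90.5 to 99.3%) and ranged from 0 to 803 CPM (median 62.5). *Kit* was found in 94.4% (87.4 to 98.1%) and ranged from 0 to 525 CPM (median 69.3). The other 3 markers included cells with no count. *Myb* was found in 91.0% (83.1 to 96.0%; 0 to 260 CPM, median 21.1) and *Gata2* in 96.6% (0 to 309 CPM, median 39.2). *Pf4* was the least common, found in 77.5% (67.5 to 85.7%; 0 to 624 CPM, median 10.9). Of these genes, *Itga2b* encodes the antigen used in the sort. *Itga2b* transcripts were found in 91.1% of the CD41- Endo cells, with a mean of 69.8 CPM against 92.4 in E8.5 HPC. *Runx1* and *Myb* separated the 2 CDH5+ populations more clearly, since *Runx1* was found in 19.0% of E8.5 Endo cells (mean 8.64 CPM against 229) and *Myb* in 1.27% (mean 0.21 against 39.9). None of the 6 markers was highest in E8.5 HPC. Among 13 populations *Runx1* ranked 2nd, *Itga2b* and *Kit* 3rd, *Myb* and *Pf4* 4th and *Gata2* 8th.

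**Figure D1:**
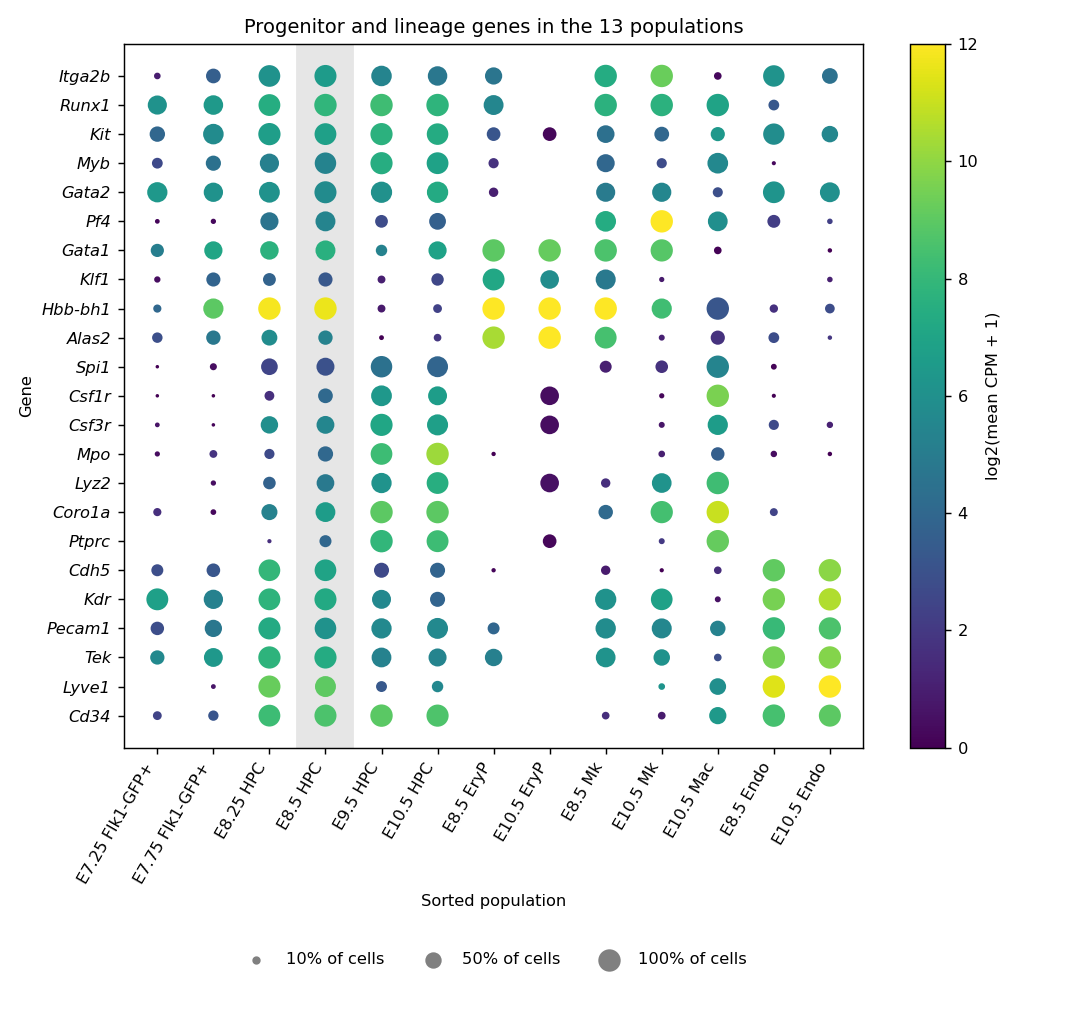
Mean level (colour, log2 of mean CPM + 1) and share of cells with 1 count or more (dot area) of 23 genes (rows) in the 13 sorted populations (columns), with E8.5 HPC shaded. Progenitor, erythroid, myeloid and endothelial genes all have dots in the E8.5 HPC column, and each of the 23 has a higher mean in another population; colours at 12 stand for 12 or more.

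By mean level, no gene found in at least 50% of the E8.5 HPC cells was 2-fold above every other sorted population, and no gene was 2-fold below. A gene was called above all others when its log2 of mean CPM + 1 was at least 1 (2-fold) above the highest of the other 12 populations and it was found in at least 50% of the cells, with 10490 genes tested, those that reached 20 mean CPM in any population. The count was 0 of 10490 above (0%) and 0 of 10490 at least 2-fold below (0%). Without the minimum share of cells, *Ctnna2* was above (mean 21.1 CPM, log2 ratio 3.45). With medians over cells in place of means, 6 of 6692 genes were above (*Uty*, *Socs4*, *Akap5*, *2500004C02Rik*, *Gm13212* and *Zfp820*), and with CPM over cell totals 1 was (*Rpph1*). *Uty* is Y-linked, and whether the share of male cells in a sort moved its median was not tested. Each of the other 12 populations had genes on both sides, from 4 (E8.5 Mk) to 585 (E10.5 Mac) above and from 1 (E10.5 HPC) to 3327 (E10.5 EryP, 3 cells) below. E8.25 HPC, sorted through the same gate, had 11 above and 2 below. E8.5 HPC also held the highest mean of the 13 for the fewest genes, 163, and the lowest mean for the fewest, 44.

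**Figure D2:**
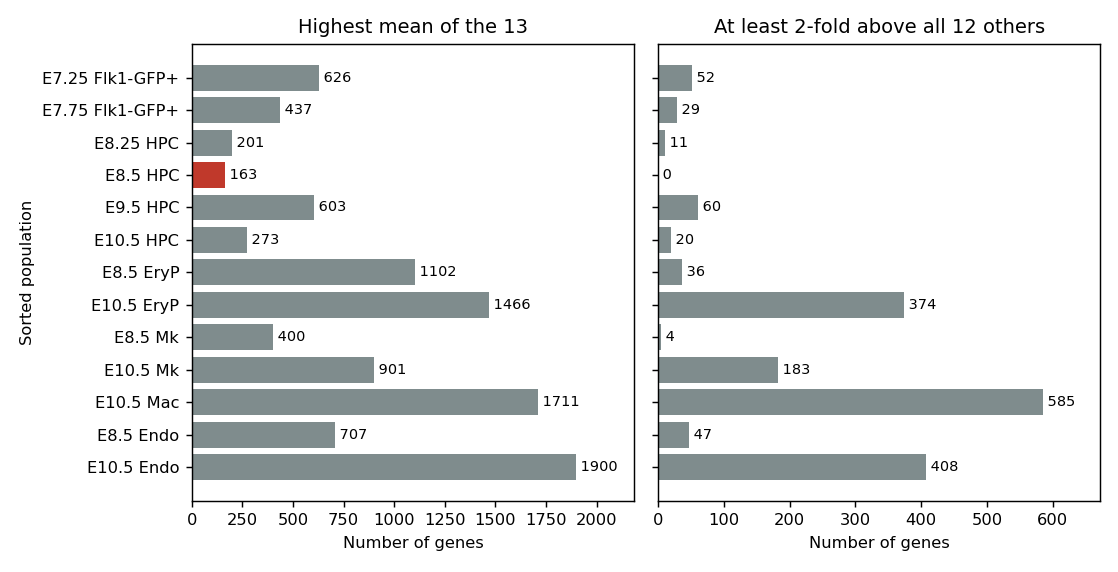
Number of genes with the highest mean level of the 13 populations (left bars) and number at least 2-fold above all 12 others (right bars), for each sorted population, out of 10490 genes. E8.5 HPC (red) has 163 and 0, the lowest of the 13 on both axes.

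Of the 10 genes that came nearest to this threshold, which were picked out after their values were seen, 5 had a mean below that of the next population once their highest cell was left out (*Armc10*, *Gucd1*, *Tmem168*, *Atg12* and *Cenpu*). *Armc10*, encoding an armadillo repeat protein, had a mean of 161 CPM against 81.2 in E10.5 Mac (log2 ratio 0.98). One cell held 8938 CPM of it, the median cell 39.9, and the mean without that cell was 61.6. *Tmem168* had a mean of 164 CPM with 10656 CPM in 1 cell, and *Gucd1* had 69.2 with 4343 CPM in 1 cell. Without that cell their means were 45.0 and 20.7 CPM. *Rpph1*, the RNA component of ribonuclease P, was spread more evenly (mean 55.9 CPM, median 29.0, highest cell 611) and exceeded E8.5 Endo by 0.90. On the low side *Sun1*, a nuclear envelope gene, was nearest, with 16.1 CPM against 26.5 in the next lowest population (log2 ratio -0.69).

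When only the 3 other E8.5 populations were considered, a choice made after the counts above were known, 41 of 8241 genes were at least 2-fold above all of them (0.498%) and 14 were below (0.17%). With medians over cells 173 genes were above, of which 21 were among the 41, and with a pseudocount of 10 CPM 27 were. Among the 41, 34 had a median at least 2-fold above the 3 other medians. Some of these, such as *Mctp1* (median 8.89 CPM), lay below the 20 CPM needed for a call. The genes of the 41 named below were picked after their values were seen, and not in order of rank. *Mctp1*, encoding a calcium-binding membrane protein, had the greatest ratio (log2 5.09), with a mean of 73.4 CPM in E8.5 HPC and 1.18 CPM in Endo as the next highest. It ranged from 0 to 343 CPM (median 8.89) and was found in 68.5% of the cells. *Lyz2*, the lysozyme of myeloid cells, whose reads could be shared with the closely related *Lyz1*, had a mean of 28.3 CPM against 2.04 in Mk (log2 3.27). *Csf3r*, the receptor of granulocyte colony-stimulating factor, had 44.2 CPM against 5.45 in Endo (log2 2.81). *Coro1a*, an actin regulator of leukocytes, had 95.7 CPM against 16.0 in Mk (log2 2.51), and ranged from 0 to 435 CPM over cells with a median of 44.7. The log2 ratio of *Rac2*, a small GTPase of blood cells, was 2.23, and that of *Alox5ap*, a protein of leukotriene synthesis, was 2.18.

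Further genes of the 41 were picked in the same way. *Stat4*, a cytokine signal transducer, had a log2 ratio of 3.02, and *Arhgap30* and *Rgs2*, which act on small and heterotrimeric G proteins, had 3.20 and 2.15. *Bcl11a*, a repressor known from globin switching and lymphoid development, had 59.9 CPM against 13.5 in EryP (log2 2.07). *Ptk2b* (2.04), *Psd4* (1.97) and *Nckap1l* (1.81) encode proteins of adhesion and cytoskeletal signalling. *Angpt1*, the ligand of the TEK receptor, reached 89.5 CPM against 23.0 in Mk (log2 1.92). *Dnmt3b*, a de novo DNA methyltransferase, was found in 100% of the cells, from 9.70 to 1040 CPM with a median of 296, and its mean of 320 CPM compared with 86.6 in Mk (log2 1.87). The ratios of *Sall3*, *Mmrn1* and *Cdk6* were 1.69, 1.56 and 1.54, and *Myb* was 1.40 above Mk.

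Single cells weighed on part of this list. With the highest E8.5 HPC cell of each gene left out, 26 of the 41 stayed at least 2-fold above, and 15 did not, among them *Appl2* (1 cell with 6324 CPM), *Armc10*, *Tmem168*, *Casp8* and *Stk24*. The log2 ratios of these named genes fell to between -0.65 and 0.65, and those of the rest of the 15 to between 0.79 and 0.999. When the highest cell was left out of every population, 55 genes were called and 31 of them were among the 41. Without cells holding transcripts of both sexes, 55 genes were called and 27 of them were among the 41. The 41 genes were chosen by their E8.5 HPC means. Of them, 30 had a higher mean in E9.5 HPC (73.2%, against 41.9% of all 8241 genes), 28 in E10.5 HPC (68.3% against 40.3%), 23 in E10.5 Mac (56.1% against 36.1%) and 5 in E8.25 HPC (12.2% against 46.6%). The later populations were sequenced on the other flow cell, so stage and flow cell cannot be told apart. Against the other populations of its own flow cell alone, E8.5 HPC had 12 genes above (*Appl2*, *Armc10*, *Arhgap30*, *Rac2*, *Coro1a*, *Lyz2*, *Rgs2*, *Nckap1l*, *Casp8*, *Fig4*, *Ttyh2* and *Stk24*) and 5 below (*Celf4*, *Crb2*, *Gm26514*, *Zfp623* and *Sun1*). With the highest E8.5 HPC cell of each gene left out, 4 of the 12 stayed above (*Arhgap30*, *Coro1a*, *Lyz2* and *Rac2*). The log2 ratios of *Appl2*, *Armc10*, *Casp8* and *Stk24* then fell to between -0.15 and 0.50. Those of *Fig4*, *Ttyh2*, *Rgs2* and *Nckap1l* were 0.76 to 0.95, not far below the threshold. Of the 14 genes below the E8.5 populations, *Celf4* had the lowest ratio (0.46 CPM against 5.92 in Mk, log2 -2.24) and *Sun1* had 16.1 CPM against 44.6 in Endo (log2 -1.41).

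Of the 3 populations nearest by gate, E8.25 HPC was the closest. Within 2-fold were 95.2% of 7033 genes, while 1.89% were at least 2-fold higher in E8.5 HPC and 206 genes were lower (2.93%). Of the 12 genes with the greatest ratios, 10 had a single cell far above the rest. *Usp32*, *Secisbp2*, *Herc2*, *Cdc42ep1*, *Vcpip1* and *Zhx1* had log2 ratios of -3.03 to -2.01, and in E8.25 HPC the highest cell of each held from 11211 to 27186 CPM. Their medians over cells did not follow the means. That of *Secisbp2* was 34.6 CPM in E8.5 HPC and 36.5 in E8.25 HPC, and those of *Herc2* (29.8 and 18.4) and *Zhx1* (44.4 and 13.3) were higher in E8.5 HPC. On the higher side, *Armc10* (1.88), *Ugp2* (1.49), *Zfp35* (1.45) and *Casp8* (1.34) each had 1 E8.5 HPC cell with 5630 to 8938 CPM. *Bin2*, a membrane-bending protein of blood cells, did not depend on such a cell. It ranged to 576 CPM in E8.5 HPC (mean 107.95, median 70.1, found in 84.3% of cells) and to 522 CPM in E8.25 HPC (mean 37.4, median 0.7, 57.5%), a log2 ratio of 1.51. *Zfp930*, one of a family of similar zinc finger genes whose reads may be shared, was found in 79.8% and 43.8% of the cells (log2 1.25). Without the highest cell of each population for each gene, 1.53% of genes were higher and 1.85% lower. With medians over cells in place of means the balance turned, with 8.06% higher and 1.11% lower. With a pseudocount of 10 CPM in place of 1 the shares were 0.626% and 1.56%.

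Against E8.5 Endo, the E8.5 HPC were higher in blood genes and lower in endothelial ones. Of 7601 genes, 724 were at least 2-fold higher (9.53%) and 1280 lower (16.8%), and with medians over cells the balance turned, with 27.05% higher and 14.8% lower. With a pseudocount of 10 CPM 6.18% were higher. *Hbb-bh1*, the embryonic beta-type globin, had a mean of 3191 CPM against 2.20 (log2 9.96), followed by the embryonic globins *Hba-x* (341 against 0.79, log2 7.57) and *Hbb-y* (184 against 0.46, log2 6.99). *Gata1*, the master regulator of erythroid and megakaryocytic genes, had 199 CPM and no count in 79 Endo cells, and so was taken as at least 9414-fold higher with 3 counts over the group as the floor. Such bounds, here and below, compare the counts summed over each group per summed depth, and so do not scale with the mean CPM. They depend on the floor set and concern reads, which are not independent molecules. With the pseudocount of 1 CPM the log2 ratio of *Gata1* was 7.64. *Sla*, an adaptor of antigen and cytokine receptor signalling, likewise had no count in Endo and was at least 7832-fold higher at 150 CPM. *Gucy1a3*, a subunit of soluble guanylate cyclase, had 299 CPM against 1.96 (log2 6.66). On the other side, *Cd36*, a fatty acid and thrombospondin receptor, had no count in any of the 89 cells (a count of 0 was taken to leave room for 3 of 89 cells, or 3.37%, and the exact interval reaches 4.06%), and was found in 77.2% of Endo cells at 101.3 CPM (at least 4587-fold lower in E8.5 HPC). *Flrt2* (6.82 against 347 CPM), *Fmo1* (9.82 against 462), the imprinted transcript *Rian* (10.9 against 465), *Pcdh17* (4.25 against 173) and *Gm37899* (4.45 against 276) had log2 ratios between -5.67 and -5.05.

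Against E8.5 Mk, the E8.5 HPC were higher in endothelial genes and lower in globins. Of 7176 genes, 633 were at least 2-fold higher in E8.5 HPC (8.82%) and 366 lower (5.1%), the latter 2.88% with a pseudocount of 10 CPM. *Lyve1*, a hyaluronan receptor of yolk sac endothelium, lymphatic vessels and some macrophages, was at 525 CPM in E8.5 HPC with no count in 37 Mk cells, at least 23152-fold higher. *Cd93* (248 CPM against 0.02, log2 7.92), *Sparc* (297 against 1.01, log2 7.21) and *Cd34* (394 against 1.95, log2 7.06) are genes of endothelium, matrix and progenitors. *Maf* (141.9 against 0.09 CPM, log2 7.04), a transcription factor, and *Cgnl1* (114.5 CPM, at least 3081-fold), a junction protein with 5709 CPM in 1 cell, completed the 6 greatest. The 6 lowest were *Hbb-y* (184 against 5120 CPM, log2 -4.79), *Hba-a2* (-4.52), *Hba-x* (-4.24), *Hba-a1* (-4.08), the cytokine receptor chain *Csf2rb* (46.0 against 429 CPM, log2 -3.20) and *Alas2*, the first enzyme of erythroid haem synthesis (38.1 against 356 CPM, log2 -3.19). *Hba-a1* and *Hba-a2* are nearly identical genes, so their split is uncertain.

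The lists of lineage genes are counted here over all their measured members with no minimum level, since a minimum keeps members through the population where they are high. This was chosen after the data were seen. Of all 15967 genes, 11.7% were at least 2-fold higher than in Endo and 16.2% lower, 14.1% higher than in Mk and 6.36% lower, and 4.99% higher than in E8.25 HPC and 5.51% lower. The medians over all genes were 0.04 (Endo), 0.01 (Mk) and 0.01 (E8.25 HPC) on the log2 scale. Of 29 endothelial genes, 0 were higher and 26 lower than in Endo (median log2 -2.39), and 27 were higher and 0 lower than in Mk (3.31). Of 21 haem and red cell genes, 15 were higher and 0 lower than in Endo (1.79), and 0 were higher and 20 lower than in Mk (-2.14). Of 20 myeloid surface and signalling genes, 16 were higher and 0 lower than in Endo (2.40), and 13 were higher and 2 lower than in Mk (1.47), the lower ones being *Csf2rb* and *Itgb2*. Of 20 megakaryocyte genes, 15 were higher and 0 lower than in Endo (2.58), and 1 was higher and 13 lower than in Mk (-1.18). Against E8.25 HPC, 7 endothelial genes were lower (-0.46), 7 myeloid surface genes higher (0.57) and 6 megakaryocyte genes higher and 1 lower (0.88), with 1 haem gene lower (-0.37). Immediate early genes, which respond within minutes to stimulation and to handling of cells, moved beside these lists. Of 8, 3 were higher and 0 lower than in E8.25 HPC (0.70), 0 higher and 2 lower than in Endo (-0.65), and 1 higher and 3 lower than in Mk (-0.76), and their part in the other differences was not tested.

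Placed between Endo and Mk, the E8.5 HPC means were intermediate for most genes. Endo and Mk differed at least 2-fold in 2889 genes, 1178 higher in Mk and 1711 higher in Endo, and this comparison was also chosen after the values were seen. For 2523 of them (87.3%) the E8.5 HPC mean lay between those of Endo and Mk. Its position on the log2 scale, with Endo at 0 and Mk at 1, had a median of 0.68 for the genes higher in Mk and 0.56 for the genes higher in Endo. E8.25 HPC had 87.7% between, at medians of 0.60 and 0.47, and the other 9 populations had 20.9 to 71.3%. Of the 366 genes outside, 177 were above both and 189 below both, and 12 and 17 of these by 2-fold or more.

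**Figure D3:**
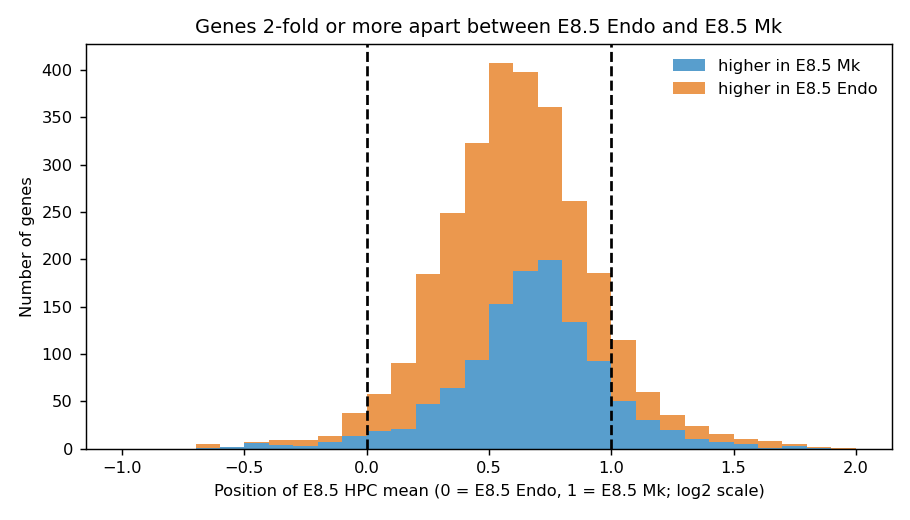
Number of genes (vertical axis) by the position of the E8.5 HPC mean between E8.5 Endo (0) and E8.5 Mk (1) on the log2 scale (horizontal axis), for the 2889 genes at least 2-fold apart between these 2; blue bars are genes higher in Mk, orange bars, stacked on them, genes higher in Endo. Most genes, 87.3%, fall between the dashed lines at 0 and 1; 9 genes beyond the plotted range are not drawn.

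Most regulators of blood progenitors were found in most cells. Of 20 such genes, 17 were found in 50% or more of the cells, and between 12 and 19 of them in any one cell (median 17). *Fli1*, an ETS factor of blood and endothelium, was found in 100% of the cells at 14.2 to 2209 CPM (median 397). *Meis1*, a homeobox partner of HOX proteins, was found in 98.9% at 0 to 1729 CPM (median 540), and *Adgrg1*, an adhesion receptor of stem and progenitor cells, in 100% at 0.68 to 724 CPM (median 217). *Lmo2*, a bridging factor of the TAL1 complex, was found in 100% (median 78.3 CPM). Some members were rare. *Gfi1* was found in 10.1% (4.73 to 18.3%), *Mecom*, a regulator of stem cells, in 30.3% (21.0 to 41.0%) and *Hlf*, a marker of later stem cells, in 4.49% (1.24 to 11.1%).

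Globins had the widest spread of all lists from cell to cell (SD 2.24 of the list level described below, over 89 cells). *Hbb-bh1* was found in 100% of the cells, at 1.61 CPM in the lowest, 112.7 in the median and 26745 in the highest. Its mean of 3191 CPM compared with 56134 in E8.5 EryP and 22619 in E8.5 Mk, and it was found in 10.1% of Endo cells, whose median depth was 1874645 counts. The lowest E8.5 HPC cells lay within the range of Endo cells. That range reached 112.4 CPM in 1 Endo cell only, a log2(CPM + 1) of 6.82 against 5.07 in the next Endo cell. *Hba-x* was found in 92.1% (0 to 7347 CPM, median 4.02) and *Hbb-y* in 70.8% (0 to 6359 CPM, median 1.47). The alpha and beta globins of later red cells were less common. *Hba-a1* and *Hbb-bt* were each found in 49.4%, *Hba-a2* in 41.6% and *Hbb-bs* in 24.7%.

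The erythroid regulators were found in differing shares of the cells. *Gata1* was found in 77.5% (67.5 to 85.7%) at 0 to 722 CPM (median 132.2), *Gfi1b*, a repressor of erythroid and megakaryocytic cells, in 84.3% (median 100.99 CPM) and *Nfe2* in 85.4% (median 58.9 CPM). *Tal1* was found in 96.6% and *Cbfa2t3* in 100%. *Klf1*, the erythroid Kruppel-like factor, was found in 36.0% (26.0 to 46.8%), from 0 to 116.9 CPM, and in 23.6% at 10 counts or more. *Epor*, the erythropoietin receptor, was found in 66.3% (0 to 388 CPM, median 8.07). *Ldb1*, a partner of LMO2, had its highest mean of the 13 populations here (45.0 CPM), but 1 cell with 2569 CPM made up 64.1% of the sum and the median was 8.66. Among the haem and red cell genes, 10 of 21 measured were found in 50% or more of the cells. *Car2* (0 to 3438 CPM, median 535), *Tfrc*, the transferrin receptor (0 to 1113 CPM, median 123.7), and *Urod* (mean 95.6 CPM) were among the highest. *Alas2* was found in 37.1% and the anion exchanger *Slc4a1* in none, with the exact interval reaching 4.06%.

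Myeloid genes were found in part of the cells. *Spi1*, the regulator PU.1, was found in 61.8% (50.9 to 71.9%) at low level, from 0 to 54.3 CPM (median 2.16), and in 29.2% at 10 counts or more. It was found with a mean of 0.07 CPM in Endo and 1.09 in Mk. *Cebpa*, a regulator of granulocytes and monocytes, was found in 3 cells (3.37%; 0.70 to 9.54%), and *Irf8* in 5.62%. *Laptm5*, a lysosomal protein of leukocytes (0 to 792 CPM, median 142.4), *Coro1a*, *Fcer1g* (0 to 460 CPM, median 66.6) and *Rac2* (0 to 782 CPM, median 31.7) had the highest means of the 20 surface and signalling genes, of which 9 were found in 50% or more of the cells. *Csf1r*, the receptor of macrophage colony-stimulating factor, was found in 39.3% (29.1 to 50.3%), from 0 to 182 CPM. In E8.25 HPC it was found in 15.1%, in Endo in 1.27%, and in no Mk cell. *Ptprc*, encoding CD45, was found in 24.7% (16.2 to 35.0%) against 1.37% of E8.25 HPC, and 1 cell made up 30.5% of its sum. *Csf3r* was found in 60.7% and *Fcgr3* in 67.4%.

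Genes of mature myeloid cells were scarce. *Mpo*, the granule peroxidase, was found in 42.7% (32.3 to 53.6%), from 0 to 184 CPM, and its mean was 15.1 CPM against 295 in E9.5 HPC and 1202 in E10.5 HPC. *Prtn3* was found in 28.1%, *Srgn* in 23.6% and *Lyz2* in 59.6%, whereas *Elane* and *Cpa3* had no count. Of 10 macrophage genes, 5 (*C1qa*, *Adgre1*, *Timd4*, *Aif1* and *Cd14*) were found in no cell, and *Cx3cr1* in 3.37%. Only *Mrc1* reached 20 CPM. It was found in 82.0% (0 to 2475 CPM, median 9.58), and its mean of 131.5 CPM compared with 1559 in E8.5 Endo and 3493 in E10.5 Mac. *Flt3* and *Ly86* also had no count.

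**Figure D4:**
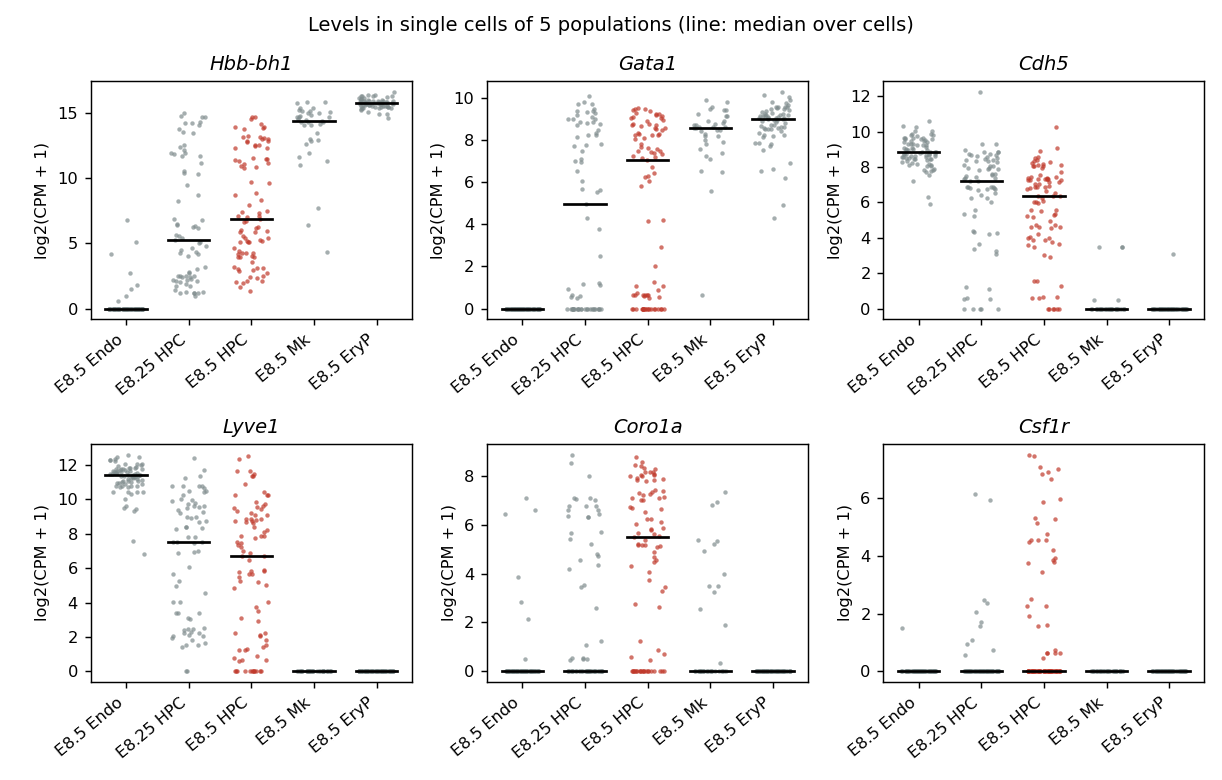
Level (log2 of CPM + 1) of 6 genes in the single cells of 5 populations; each point is 1 cell, the black line is the median over cells and E8.5 HPC are red. E8.5 HPC cells extend from the range of Endo cells to that of EryP or Mk cells for *Gata1* and *Hbb-bh1*, and from the range of Mk cells to that of Endo cells for *Cdh5*.

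Megakaryocyte genes were common at levels below those of Mk. *Plek*, the platelet kinase C substrate, was found in 100% (1.08 to 3658 CPM, median 1095), *Itgb3*, the partner of CD41, in 100% (1.54 to 969 CPM, median 147.9) and *Rab27b* in 95.5% (median 132.6 CPM). The platelet glycoprotein genes were found in fewer cells. *Gp1ba* was found in 55.1%, *Gp9* in 43.8% (33.3 to 54.8%), *Gp1bb* in 8.99% and *Gp6* in 1 cell. *Mmrn1*, multimerin of platelets and endothelium, was the 1 gene of 20 measured that was at least 2-fold higher than in Mk (164 against 55.0 CPM).

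Endothelial genes were found in most of the cells at lower levels than in Endo. *Cdh5*, the gate gene, was found in 93.3% (85.9 to 97.5%), from 0 to 1219 CPM (median 79.6), against a mean of 528 CPM in Endo. *Tek*, the angiopoietin receptor, was found in 97.8% (0 to 1191 CPM, median 89.9), *Kdr*, the VEGF receptor 2, in 96.6% (0 to 1140 CPM, median 105.9) and *Pecam1* in 92.1% (0 to 301 CPM, median 33.5). *Lyve1* (0 to 5839 CPM, median 102.8) and *Cd34* (0 to 1460 CPM, median 339) had the highest means of the 29 genes. The mean of *Cd34* was 394 CPM against 354 in Endo, and that of *Lyve1* was 525 CPM against 2754. Several members were found in few cells. *Dll4*, a Notch ligand of arteries, was found in 14.6%, *Sox7* in 12.4%, *Emcn* in 10.1% and *Sox17* in 2.25%.

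Markers of other tissues were at low levels. None of 15 mesoderm and mesenchyme genes was found in 50% or more of the cells, 3 (*Col1a1*, *Mesp1* and *Mixl1*) were found in none, and the sum over the list had a median of 3.65 CPM (highest cell 165). The 4 visceral endoderm genes measured had a median sum of 0 CPM and a highest of 49.6. *Trf*, encoding transferrin, was found in 39.3% of the cells (29.1 to 50.3%; mean 2.31 CPM), against 20.3% of Endo cells, *Ttr* in 5.62%, *Apoa1* in 4.49% and *Epcam* in 3.37%. Of 3 lymphoid genes measured, *Il7r* was found in no cell and *Cd79a* and *Ebf1* in 1 cell each. The cell cycle genes were found in nearly all cells. All 16 S phase and all 16 mitosis genes were found in 50% or more, with *Rrm2* from 112.3 to 3516 CPM and *Top2a* from 123.2 to 3801 CPM. *Chaf1b* had its highest mean of the 13 populations in E8.5 HPC (146.04 against 137.2 CPM in EryP), but 1 cell made up 19.7% of its sum. Without that cell its E8.5 HPC mean lay below that of EryP. Of the 6 embryonic timing genes, which mark early developmental programs, 3 were at least 2-fold higher than in Mk (against 14.1% of all genes), 0 were higher or lower than in Endo (median log2 -0.06), and 0 were higher and 1 lower than in E8.25 HPC (0.11). *Hmga2* was at 467 CPM against 6.26 and *Lin28a* at 53.3 against 24.8, the latter with 125.2 CPM in E8.25 HPC, and *Igf2bp2* at 78.4 against 5.60.

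The spread of the lineage genes among the 89 cells was followed through the mean log2(CPM + 1) of each list in each cell. Erythroid regulators ranged from 0.85 to 6.73 (median 4.47; 4.07 ± 1.45, SD over 89 cells) and endothelial genes from 0.67 to 6.29 (median 3.36; 3.09 ± 1.47). Myeloid surface and signalling genes ranged from 0.18 to 4.74 (median 2.18; 2.26 ± 1.09) and megakaryocyte genes from 0.63 to 5.94 (median 2.79; 3.06 ± 1.23). The erythroid and endothelial SDs exceeded those within Endo (0.55 and 0.60) and within Mk (0.86 and 0.24), while E8.25 HPC had 1.65 and 1.87. All of them rest on a pseudocount of 1 CPM, and one of 10 CPM lowered those of E8.5 HPC. These SDs join true differences between cells with the sampling of reads in each, and the 2 were not separated.

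Cells with high erythroid levels had low endothelial levels. Across the 89 cells, which share a lane and the scaling of their depth, Spearman's rho between the erythroid regulator and endothelial lists was -0.68. The erythroid list varied together with globins (0.71), haem and red cell genes (0.83) and megakaryocyte genes (0.60). The endothelial list was negatively related to megakaryocyte genes (-0.45) and positively to the macrophage list (0.62), of which only *Mrc1* reached 20 mean CPM. For myeloid surface genes rho was -0.33 with the erythroid list and 0.29 with the endothelial list, and it was 0.68 with granule protein genes and -0.01 with megakaryocyte genes. The myeloid list was also related to the number of genes found in a cell (rho 0.46), more than the erythroid (0.16) and endothelial (0.14) lists. Without the 40 cells with transcripts of both sexes, rho was -0.61 between the erythroid and myeloid lists and 0.54 between the endothelial and myeloid lists, against -0.61 between the erythroid and endothelial lists. The megakaryocyte list then had a rho of 0.49 with the erythroid, -0.30 with the endothelial and -0.20 with the myeloid list. The part of doublets in these values was not tested. Within other populations the erythroid and endothelial lists had a rho of -0.75 in E8.25 HPC, -0.18 in E10.5 HPC, 0.28 in E9.5 HPC, -0.03 in E8.5 Mk, 0.19 in E8.5 EryP and 0.04 in E8.5 Endo. It was 0.65 in E7.25 and 0.12 in E7.75 *Flk1*-GFP+ cells, 0.25 in E10.5 Mk, 0.16 in E10.5 Mac and 0.11 in E10.5 Endo.

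**Figure D5:**
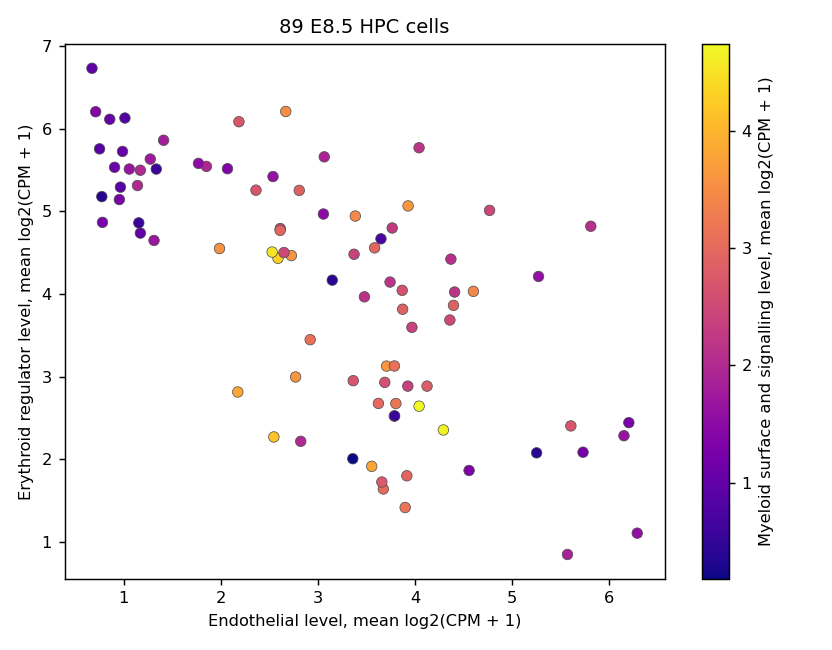
Endothelial level (horizontal axis) against erythroid regulator level (vertical axis), both as mean log2(CPM + 1) of the list, in the 89 E8.5 HPC cells; each point is 1 cell, coloured by its myeloid surface and signalling level. Points run from high erythroid and low endothelial to low erythroid and high endothelial levels (rho -0.68), and the lightest points, the highest myeloid levels up to 4.74, lie away from both ends.

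The genes that varied most included erythroid and endothelial genes. Among 4028 genes reaching 50 mean CPM in these cells, the 15 with the highest variance of log2(CPM + 1) began with *Hbb-bh1* (17.0), *Lyve1* (15.3) and *Gata1* (15.0). *Maf*, *Cd34*, *Sash3*, *Zfp930*, *Gm43361*, *Zfp40*, *P2ry14*, *Dhrs3*, *Enc1*, *Igf1*, *Hba-x* and *Rab31* followed, with variances of 13.8 to 11.9. The first principal component of the 500 most variable genes held 10.2% of their variance. *Gata1*, *Hbb-bh1*, *Foxh1* and *F10* were among the leading genes of its one end and *Lyve1*, *Cd34*, *Igf1*, *Ecscr* and *Mest* led the other, and its rho was 0.86 with the erythroid list and -0.87 with the endothelial list. Its rho was also 0.61 with the megakaryocyte list and -0.40 with the myeloid surface list. *Tubb1* and *F2rl2* of the megakaryocyte list lay at the *Gata1* end. The second (5.94%) followed the number of genes found in a cell (rho 0.89). The third (3.46%) had a rho of 0.55 with the myeloid surface list, with *Coro1a*, *Fcer1g*, *Pla2g4a*, *Bin2* and *Ptgs1* at one end and *Hbb-bh1*, *Adgrf5* and *Mrc1* at the other.

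For *Gata1* and *Cd34*, which lie at opposite ends of the first component, and for *Klf1*, the erythroid gene used as an anchor, the bases before a RefSeq start (GRCm38.p6) are shown, to give the sequence beside the levels. In the annotation of GRCm38 these protein-coding genes span X:7959260-7978071 (*Gata1*, minus strand), 8:84901928-84905291 (*Klf1*, plus strand) and 1:194938819-194961279 (*Cd34*, plus strand). The *Gata1* window lies inside that span, whose annotated start is further upstream. Whether the window overlaps an exon was not looked up. The *Klf1* and *Cd34* windows reached past the annotated start by 54 and 2 bases, which are left out. Capitals mark matches on either strand to short letter patterns. The GATA pattern was TGATAA or the same letters with A in first place and G in the next. The KLF pattern was CCNCNCCC, the ETS pattern was CAGGAAG, and the RUNX pattern was TGTGGT. The *Gata1* window (chrX:7967911-7968160, minus strand) holds the ETS pattern at -126 and the KLF pattern at -71, -55 and -34, counted from the RefSeq start. The *Klf1* window (chr8:84901732-84901927, plus strand) holds the RUNX pattern at -79 to -74 and the GATA pattern at -26 to -21, both on the opposite strand and counted from the annotated start. The *Cd34* window (chr1:194938571-194938818, plus strand) holds the ETS pattern at -140 to -134 from the annotated start, on the opposite strand.
Gata1: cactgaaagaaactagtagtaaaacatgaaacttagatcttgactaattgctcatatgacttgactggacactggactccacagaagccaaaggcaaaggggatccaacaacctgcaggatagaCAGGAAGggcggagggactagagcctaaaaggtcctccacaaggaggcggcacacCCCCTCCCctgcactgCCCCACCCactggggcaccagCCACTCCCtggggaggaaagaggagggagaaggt
Klf1: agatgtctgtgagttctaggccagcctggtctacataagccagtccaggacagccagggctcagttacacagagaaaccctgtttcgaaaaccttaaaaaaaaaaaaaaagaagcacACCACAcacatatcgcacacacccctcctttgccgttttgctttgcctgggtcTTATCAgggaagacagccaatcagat
Cd34: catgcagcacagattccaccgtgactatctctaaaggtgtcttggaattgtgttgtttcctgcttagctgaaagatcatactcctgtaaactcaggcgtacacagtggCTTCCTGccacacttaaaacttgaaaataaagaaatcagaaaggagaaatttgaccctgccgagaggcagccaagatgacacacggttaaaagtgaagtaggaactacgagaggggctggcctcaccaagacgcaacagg
The matches do not overlap one another. Of 32851 promoter windows, 45.9% held the KLF and 10.8% the ETS pattern in the 250 bases of the *Gata1* window, and 10.8% the ETS pattern in the 248 bases of the *Cd34* window. In the 196 bases of the *Klf1* window, 8.26% held the GATA pattern with AG in first place, 6.65% that with TG and 11.4% the RUNX pattern, so each match is a description of these letters and of no binding. Entries were found for 187 of 247 list genes and for 10 of 15 genes looked for here, which did not include *Cdh5*, *Spi1*, *Lyve1*, *Hbb-bh1* and *Csf1r*.

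The genes most like each of 4 lineage anchors over the 89 cells were ranked by Spearman's rho among the other genes with enough counts, 6654 for *Klf1*. The likeness is described without a test. Among the most like *Klf1* were *Hbb-bh1* (0.71), the amino acid transporter *Slc38a5* (0.65), *Hba-a1* (0.64) and *Pfkfb4* (0.63). Most like *Cdh5* were *Marcks* (0.82), *Sparc* (0.80), *Calcrl* (0.79), *Pik3c2b* (0.79), *Ecscr* (0.78) and *Vim* (0.76). The myeloid and megakaryocytic anchors had looser partners. Most like *Spi1* were *Cdk6* (0.57), *Bcl11a* (0.56), *Hmga2* (0.55), *Alox5ap* (0.52), *Coro1a* (0.51) and *Actr2* (0.50), and among the most like *Pf4* were *F2rl2* (0.52), *Rab27b* (0.50), *Fyb* (0.47), *Mrvi1* (0.46) and *Prkar2b* (0.45).

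Genes of different lineages were found in the same cells. *Gata1* and *Cdh5* were found together in 63 cells (70.8%; 60.2 to 79.9%), and in 41 cells (46.1%) at 10 counts or more of each. No cell lacked both. *Cdh5* is the gate gene and was found in 93.3% of all cells, so a high share together with it follows in part from its own share. It was found in 91.3% of the 69 cells with *Gata1* and in 100% of the 20 without. At 10 counts or more of each gene these were 75.9% of 54 and 100% of 35. *Spi1* and *Cdh5* were found together in 54 cells (60.7%; 49.7 to 70.9%) and *Klf1* and *Cdh5* in 28 (31.5%; 22.0 to 42.2%). *Cdh5* was found in 98.2% of the cells with *Spi1* and 85.3% of those without, and in 87.5% and 96.5% for *Klf1*. Pairs of erythroid and myeloid factors are given next. *Klf1* and *Spi1* were found together in 14 cells (15.7%; 8.88 to 25.0%) and in 5 (5.62%) at 10 counts or more of each. *Gata1*, *Spi1* and *Cdh5* were all found in 37 cells (41.6%; 31.2 to 52.5%), and in 11 cells (12.4%; 6.33 to 21.0%) at 10 counts or more. *Spi1* was found in 43.8% of the 32 cells with *Klf1* and in 71.9% of the 57 without. At 10 counts or more of each gene the shares were 23.8% of 21 cells and 30.9% of 68. All 35 cells with *Csf1r* also held *Cdh5*, as did 88.9% of the 54 others. *Gata1* was found in 23 of the 35 (65.7%) and in 85.2% of the others. *Spi1* was found in 88.6% of the cells with *Csf1r* and in 44.4% of the others. At 10 counts or more of each gene, all 23 cells with *Csf1r* held *Cdh5* and 10 of them (43.5%) held *Gata1*. Of the 66 others, 80.3% held *Cdh5* and 66.7% held *Gata1*. The shares with *Spi1* were then 47.8% and 22.7%. Of the 22 cells with *Ptprc*, 16 held *Csf1r* (72.7%), against 28.4% of the 67 without.

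Cells with more *Gata1* counts had lower levels of endothelial genes and, in part, higher levels of erythroid ones. *Gata1* was not found in 20 cells, had 1 to 9 counts in 15 and 10 counts or more in 54, and these classes are ranges, since 15 cells lie near the limits. *Cd34* had medians of 691, 681 and 111.3 CPM in the 3 classes, *Lyve1* of 683, 212 and 11.4, and *Cdh5* of 160, 131.5 and 24.6. *Hbb-bh1* had medians of 33.7, 14.6 and 2253 CPM, from 2.20 to 241 in the cells without *Gata1* and from 1.61 to 26745 in the cells with 10 counts or more, so the ranges overlapped. *Gfi1b* had medians of 20.6, 50.6 and 157.2. Of the progenitor markers, *Runx1* was found in every cell of the 3 classes (medians 249, 90.9 and 223 CPM) and *Myb* in 90.0, 93.3 and 90.7% of the cells. *Csf1r* was found in 60.0, 53.3 and 27.8% and *Spi1* in 85.0, 93.3 and 44.4%.

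The populations nearby also held cells with transcripts of both sexes. They made up 59 of 79 Endo cells, 16 of 37 Mk, 30 of 66 EryP and 26 of 73 E8.25 HPC at 5 counts of each. Within E8.5 HPC, the 40 such cells had a mean endothelial level of 3.40 against 2.84 in the other 49, and an erythroid level of 3.87 against 4.24. *Gata1* and *Cdh5* were found together at 10 counts or more in 20 of the 40 (50.0%) and in 21 of the 49 others (42.9%), and the number of genes found in a cell had medians of 9099.5 and 9004. For the 11 cells with 50 counts of each, these shares were 45.5% against 46.2% of the other 78, the mean endothelial level was 4.10 against 2.95, the erythroid 3.60 against 4.14, and the median number of genes found 9406 against 8961.5. Whether these transcripts came from a second cell at the capture site or from other libraries was not tested.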

How the data were processed

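Single cells of 13 sorted populations were captured on the Fluidigm C1 system, made into Nextera XT libraries and read as paired ends. The authors aligned the reads with Subread to GRCm38 and made the count values per gene with featureCounts, then filtered cells and genes with scater. The signal values are a CPM table that the authors computed from the filtered counts with scran size factors. The filtered tables hold 15967 genes, and no column was left without a sample (0). No alignment was repeated.

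Levels are means of CPM over cells and ratios are log2 of (mean CPM + 1), for genes reaching 20 mean CPM in a population compared. The call was 2-fold. A gene at 0 counts in a group was given a floor of 3 counts over the group. List levels are means of log2(CPM + 1). No test was made, since each population is 1 sample with no labelled replicate and cells are not replicates. The members and the gene lists were chosen with earlier results of these data known. Named genes are the progenitor markers, the 6 highest and 6 lowest ratios against each gate neighbour, the leading and defining members of each list, the 15 most variable genes and the 6 genes most like each anchor. Some genes that this rule names are not reported here. The remaining genes were named after their values were seen, as said there. The alternatives were other scalings (CPM over cell totals, counts thinned to 840000 a cell), medians, a pseudocount of 10, no filter, 10 counts for detection, 1.5-fold and 3-fold, and leaving out populations or cells, and some were added after the data were seen. The calling code was run on simulated counts with known changes. These were drawn for fewer populations and without single cells far above the rest, so they cannot show how such cells moved the calls here. Gene positions and promoters are on GRCm38. The software was Python 3.11.15, with scipy 1.17.1, pandas 2.3.3, matplotlib 3.10.9 and numpy 2.4.6.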

Additional observations from a re-analysis of the deposited data

Results flagged for a closer look

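Counts of 20 list genes that the authors' filter removed were looked up in the unfiltered table, which no comparison used; 19 were matched, *Ahsp* was not, and 5 held more than 3 counts over the 89 E8.5 HPC cells. *Rbp4*, a retinol carrier of visceral endoderm, held 55 counts in 8 cells. *Afp*, alpha-fetoprotein of visceral endoderm, held 26 counts in 4 cells. *Hnf4a*, a regulator of visceral endoderm and liver, held 80 counts, *Dntt*, the lymphoid terminal transferase, 75 counts and *Cubn*, an endocytic receptor of visceral endoderm, 36 counts, each in 1 cell only. The source of these reads was not tested.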

How the results depend on the processing

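A count was taken as kept within 1.5 times its value, a share within its exact 95% interval, a list difference within 1 SD over E8.5 HPC cells, rho within 0.1 and an SD within 1.5 times. Of the values that answer a comparison, 183 were kept and 48 were not. Among the other values, 29 moved and 2 turned sign, both for the haem list, whose difference from E8.25 HPC (-0.0055) was 0.0095 with CPM over cell totals and 0.18 without the cells with transcripts of both sexes. The count of genes above all other populations (0) was 1 with CPM over cell totals, 6 with medians, 12 within the same flow cell, 41 against the 3 other E8.5 populations, 3 without the other HPC, 7 at 1.5-fold, 1 with no minimum share and 4 with no filter as well. The count below all others (0) was 5 within the same flow cell, 1 without cells with transcripts of both sexes, 14 against the E8.5 populations, 1 without the other HPC and 1 at 1.5-fold. Above the E8.5 populations (41) there were 27 genes with a pseudocount of 10, 173 with medians and 26 without the highest E8.5 HPC cell of each gene, which left 4 of the 12 within the same flow cell. Some of the genes lost without that cell kept log2 ratios just under 1, such as *Fcer1g* (0.999), *Sash3* (0.998) and *Fig4* (0.95). Others fell below 0, such as *Appl2* (-0.15) and *Tmem168* (-0.65). In percent of genes tested, medians gave 8.06 above and 1.11 below E8.25 HPC, and 27 above and 14.8 below Endo. A pseudocount of 10 gave 0.626 above and 1.56 below E8.25 HPC, 6.18 above Endo and 2.88 below Mk. With no filter, and so with more genes tested, the percentages were 4.99 and 5.51 for E8.25 HPC, 11.7 and 16.2 for Endo and 14.1 and 6.36 for Mk. Without the highest cell of each population per gene, 1.85 were below E8.25 HPC and 3.53 below Mk. At 10 counts the shares of cells with both genes were 5.62% (*Klf1* and *Spi1*), 13.5% (*Klf1* and *Cdh5*), 29.2% (*Spi1* and *Cdh5*) and 46.1% (*Gata1* and *Cdh5*). A pseudocount of 10 lowered the SDs to 0.83 (erythroid), 0.74 (megakaryocyte), 0.84 (endothelial) and 0.59 (myeloid surface). By the number of list genes found, rho was -0.53 between erythroid and endothelial and -0.14 between megakaryocyte and myeloid surface genes. Without the cells with transcripts of both sexes rho was -0.61 (erythroid and myeloid), 0.54 (endothelial and myeloid), 0.49 (erythroid and megakaryocyte), -0.30 (megakaryocyte and endothelial) and -0.20 (megakaryocyte and myeloid). The cause of each shift was not tested, except that no filter adds genes near 0 and fewer populations are easier to exceed. No paired analysis was possible because the labels name no embryo, litter, pool or replicate for a cell. Thinning left out no E8.5 HPC cell, but it left out 18 E7.75, 16 E10.5 HPC, 6 E10.5 Mk, 4 E10.5 Endo, 1 E8.25 HPC and 1 E9.5 HPC cells.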
